A study of Mus musculus with 9 samples.

Results

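NAD metabolism was examined through 10 genes, Cd38, Bst1, Nampt, Nmnat1, Nmnat2, Nnmt, Nadk, Sirt1, Sirt3, and Parp1, out of 50686 genes in the count table. Cd38 was chosen by its measured increase in SB216763-treated against control osteoblasts, and the other 9 genes were picked by name from the same metabolism with earlier results of these data known. The values of treated against control osteoblasts are therefore given for all 10 genes as a description, with no test, and the same holds for Cd38 in every comparison. All 10 genes passed the filter on low counts that left 15531 genes. Cd38 and Bst1 passed it only through the treated and EC libraries, where they were higher than in the controls.

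The groups were control MC3T3-E1 cells, treated MC3T3-E1 cells, and mouse pulmonary endothelial cells (ECs), with n = 3 libraries of total RNA in each. The treated cells had received 10 μM of the GSK3 inhibitor SB216763 for 14 days. Whether the control cells received vehicle or were also kept in culture for 14 days is not given in the sources used here. Time in culture and SB216763 therefore cannot be told apart. MC3T3-E1 is an osteoblast line, so all its libraries come from a single line, and the ECs were sorted by FACS. The sources used here do not say whether the libraries of a group came from separate cultures or animals, so p-values measure the spread between these libraries, which may be technical. The labels carry the same treatment text for every sample, and the groups were taken from the titles.

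NAD is the electron carrier of oxidative metabolism and also a substrate that enzymes break down. Cells make it mainly by salvage of nicotinamide, in which NAMPT forms nicotinamide mononucleotide and an NMNAT enzyme turns this into NAD. It is consumed by the ADP-ribosyl cyclases CD38 and BST1 at cell surfaces, by the sirtuin deacylases, and by the poly(ADP-ribose) polymerases. CD38 is best known from lymphocytes and is a main NAD-degrading enzyme of mammalian tissue.

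The libraries held between 30990107 and 68946333 counts, and 3 counts, taken as the least this depth can show, were between 0.0435 and 0.0968 CPM per library. This range was scaled to total counts without TMM, unlike the levels below. The level of 3 counts covers counting error only. Levels are given as CPM, TMM-normalized counts scaled to library size. Of 7 defining endothelial genes (Pecam1, Cdh5, Kdr, Tie1, Tek, Emcn, and Nos3), the sum ranged from 2.52 to 3.37 CPM in control and from 2.63 to 3.04 CPM in treated osteoblasts. In ECs it ranged from 6540 to 6700 CPM. The 6 osteoblast genes Sp7, Runx2, Alpl, Ibsp, Col1a1, and Dlx5 had sums from 20100 to 28700 CPM in control, from 2850 to 3000 CPM in treated, and from 28.9 to 38.4 CPM in EC libraries. Col1a1 made up most of these sums. Single genes fell by unlike amounts after treatment, from a log2 fold change of -0.44 for Runx2 to -6.17 for Alpl. Whether these marker levels have a part in the values below was not tested. In bulk RNA, a change in the number of cells that express a gene and a change in RNA per cell cannot be told apart.

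Cd38 and Bst1 encode the ADP-ribosyl cyclases, which split NAD into nicotinamide and ADP-ribose or its cyclic form. The genes lie side by side on chromosome 5 of GRCm38, on the same strand. Bst1 spans 43818885 to 43843986 and Cd38 spans 43868553 to 43912375, with 24566 bases and no annotated gene between them. In the control libraries Cd38 had 9, 10, and 2 counts, which corresponded to 0.142, 0.182, and 0.0695 CPM. After SB216763 treatment it was at 69.6, 67.1, and 58.0 CPM, and in the ECs at 139, 146, and 135 CPM. The 3 groups did not overlap, and the treated cells lay between the controls and the ECs. The log2 fold change of Cd38, given with its standard error (SE), was 8.80 (SE 0.14) in treated against control osteoblasts, rank 4 from the top of all genes tested. It was 9.91 (SE 0.13) in ECs against controls and -1.11 (SE 0.06) in treated osteoblasts against ECs.

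Bst1 had a different pattern. It was at 0.110, 0.0728, and 0.0347 CPM in the controls and at 1.18, 0.860, and 0.953 CPM after treatment, the latter from 41, 33, and 35 counts. ECs held far more Bst1, which was at 198, 203, and 191 CPM. The treated libraries were all above the controls, with a log2 fold change of 3.56 (SE 0.27), but they remained far below the ECs. Bst1 was lower in the treated osteoblasts than in the ECs (log2 fold change -7.63, SE 0.08, adjusted p = 9.48e-20, from the quasi-likelihood test of edgeR, adjusted by Benjamini-Hochberg). In ECs against controls its log2 fold change was 11.19 (SE 0.11), given with no p because the controls alone would not have passed the filter. Bst1 overlaps Fbxl5 on the opposite strand. The level of Fbxl5 was 46.5 ± 2.15 CPM in control osteoblasts, 70.8 ± 1.11 CPM in treated osteoblasts, and 158 ± 3.45 CPM in ECs (SD, n = 3). The strand setting of the counting is not given in the sources used here, and the part of Fbxl5 reads in the few Bst1 counts of the osteoblasts was not tested.

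The cyclase pair can be set side by side per length of exon. In the treated osteoblasts Cd38 was at 16.7 ± 1.57 CPM per kb and Bst1 at 0.300 ± 0.0488 CPM per kb, so that Cd38 made up 98.2% ± 0.231 of their sum (SD, n = 3). In the ECs Cd38 was at 36.0 ± 1.45 CPM per kb and Bst1 at 59.6 ± 1.88 CPM per kb, and Cd38 made up 37.7% ± 0.306 of the sum. The summed level was 17.0 ± 1.61 CPM per kb after treatment and 95.6 ± 3.30 CPM per kb in the ECs. In the controls the genes together had 16, 14, and 3 counts, too few for a share.

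**Figure D1:**
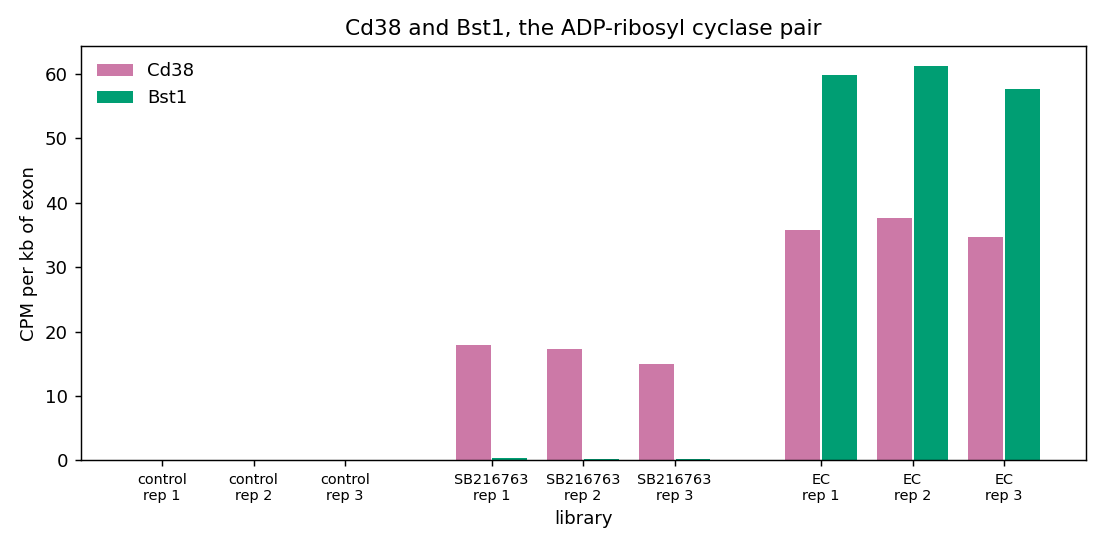
Cd38 and Bst1 in each of the 9 libraries, as normalized CPM per kb of exon (bars, from 0). The controls are near 0 for both genes, the treated libraries show Cd38 with little Bst1, and in the ECs Bst1 is above Cd38.

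Levels of 10 leukocyte genes were also read, since CD38 is abundant on leukocytes. Their sum ranged from 26.8 to 28.3 CPM in control and from 8.57 to 10.1 CPM in treated osteoblasts, and from 57.3 to 59.7 CPM in ECs, and Lyz2 and Cd68 made up most of it. Of these genes, 5 were at or under 3 counts in every control library, 6 in every treated library, and 5 in every EC library. Cd3e was at 0 counts in all 9 libraries, and Ptprc, which encodes CD45, had between 1 and 11 counts per library. Lyz2 was at 26.0 ± 1.15, 7.04 ± 0.832, and 10.4 ± 0.322 CPM in controls, treated cells, and ECs (SD, n = 3). In the same groups Cd68 was at 0.532 ± 0.194, 1.63 ± 0.0822, and 46.6 ± 0.986 CPM. Like Cd38, it was lowest in the controls and highest in the ECs. Csf1r was at 0.652 ± 0.0829, 0.229 ± 0.0404, and 1.41 ± 0.465 CPM. The part of leukocyte RNA in the Cd38 values was not tested.

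The salvage genes moved much less. Nampt, which encodes the rate-limiting enzyme of salvage, was at 54.4, 53.1, and 49.8 CPM in the controls, 44.9, 42.4, and 40.5 CPM after treatment, and 62.0, 61.1, and 58.0 CPM in the ECs. Each treated library was below each control, with a log2 fold change of -0.30 (SE 0.05). Nampt was lower in the treated osteoblasts than in the ECs (log2 fold change -0.50, SE 0.05, adjusted p = 1.52e-07, edgeR). The ECs were above the controls by 0.20 on that scale (SE 0.05, adjusted p = 0.00168, edgeR), a call that was lost without control replicate 3 (adjusted p = 0.0197) and without EC replicate 1 (adjusted p = 0.0104).

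The NMNAT enzymes carry out the last step of NAD synthesis in different compartments. Nmnat2, which encodes the Golgi and cytosolic form known from axons, was at 19.8, 20.2, and 19.6 CPM in the controls, 55.5, 55.9, and 52.9 CPM after treatment, and 42.6, 45.6, and 45.1 CPM in the ECs. The treated level was the highest of the 3 groups, with no overlap. Its log2 fold change in treated against control osteoblasts was 1.46 (SE 0.05). Against the ECs it was 0.30 (SE 0.04, adjusted p = 9.08e-06, edgeR), and the ECs were above the controls by 1.16 (SE 0.05, adjusted p = 1.01e-12, edgeR).

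Nmnat1, the nuclear form, was at 2.17, 2.71, and 2.43 CPM in the controls and 3.04, 3.13, and 2.48 CPM after treatment, and these groups overlapped. In the ECs it was at 4.88, 4.90, and 5.33 CPM. This was higher than in the controls by 1.05 on the log2 scale (SE 0.12, adjusted p = 4.88e-07, edgeR), and treated osteoblasts were below ECs (log2 fold change -0.81, SE 0.12, adjusted p = 1.09e-05, edgeR).

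Nnmt encodes the methyltransferase that diverts nicotinamide from salvage, and Nadk the kinase that turns NAD into NADP. Nnmt was at 43.2, 48.7, and 43.2 CPM in the controls and 47.3, 51.1, and 43.3 CPM after treatment, with overlap and a log2 fold change of 0.07 (SE 0.06). In the ECs it was lower, at 19.9, 20.2, and 21.8 CPM. The log2 fold change was -1.13 against the controls (SE 0.07, adjusted p = 2.01e-10, edgeR). Treated osteoblasts were above ECs by 1.19 (SE 0.07, adjusted p = 9.25e-11, edgeR).

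Nadk went from 89.0, 93.3, and 89.1 CPM in the controls to 103, 112, and 96.8 CPM after treatment. These groups did not overlap, although the log2 fold change was only 0.20 (SE 0.05). The ECs, at 113, 112, and 118 CPM, were above the controls by 0.34 (SE 0.05, adjusted p = 1.99e-05, edgeR). A difference between treated osteoblasts and ECs did not pass the threshold (log2 fold change -0.14, SE 0.05, adjusted p = 0.0258, edgeR). Without SB216763 replicate 2 it did (log2 fold change -0.19, adjusted p = 0.00379, edgeR).

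Among the NAD consumers inside the cell, the sirtuins Sirt1 and Sirt3 were higher and Parp1 was lower in every treated library than in every control. Sirt1, a nuclear deacetylase, was at 29.0, 27.5, and 27.0 CPM in the controls, 34.5, 32.6, and 35.1 CPM after treatment, and 19.5, 22.9, and 20.4 CPM in the ECs. Its log2 fold change in treated against control osteoblasts was 0.29 (SE 0.06). It was lower in the ECs than in the controls (log2 fold change -0.42, SE 0.06, adjusted p = 1.13e-05, edgeR).

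Sirt3, the main deacetylase of mitochondria, was at 3.87, 4.17, and 3.61 CPM in the controls and 5.96, 6.26, and 6.43 CPM after treatment, a log2 fold change of 0.67 (SE 0.09). It was at 3.85, 3.65, and 3.73 CPM in the ECs, where a difference from the controls did not pass the threshold (log2 fold change -0.06, SE 0.09, adjusted p = 0.540, edgeR). Treated osteoblasts were above ECs for Sirt1 by 0.71 (SE 0.06, adjusted p = 2.10e-08, edgeR) and for Sirt3 by 0.73 (SE 0.09, adjusted p = 1.56e-06, edgeR). Sirt3 overlaps Ric8a and Psmd13 on the opposite strand, and their log2 fold changes in treated against control osteoblasts were -0.57 and -0.25.

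Parp1, whose product forms poly(ADP-ribose) at DNA breaks, was at 117, 111, and 116 CPM in the controls, 71.3, 72.5, and 75.8 CPM after treatment, and 155, 159, and 161 CPM in the ECs. The treated level was the lowest and the EC level the highest, without overlap. The log2 fold change was -0.65 (SE 0.04) in treated against control osteoblasts. Treated osteoblasts were below ECs (log2 fold change -1.11, SE 0.04, adjusted p = 7.39e-13, edgeR), and ECs were above controls by 0.46 (SE 0.04, adjusted p = 4.85e-08, edgeR).

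**Figure D2:**
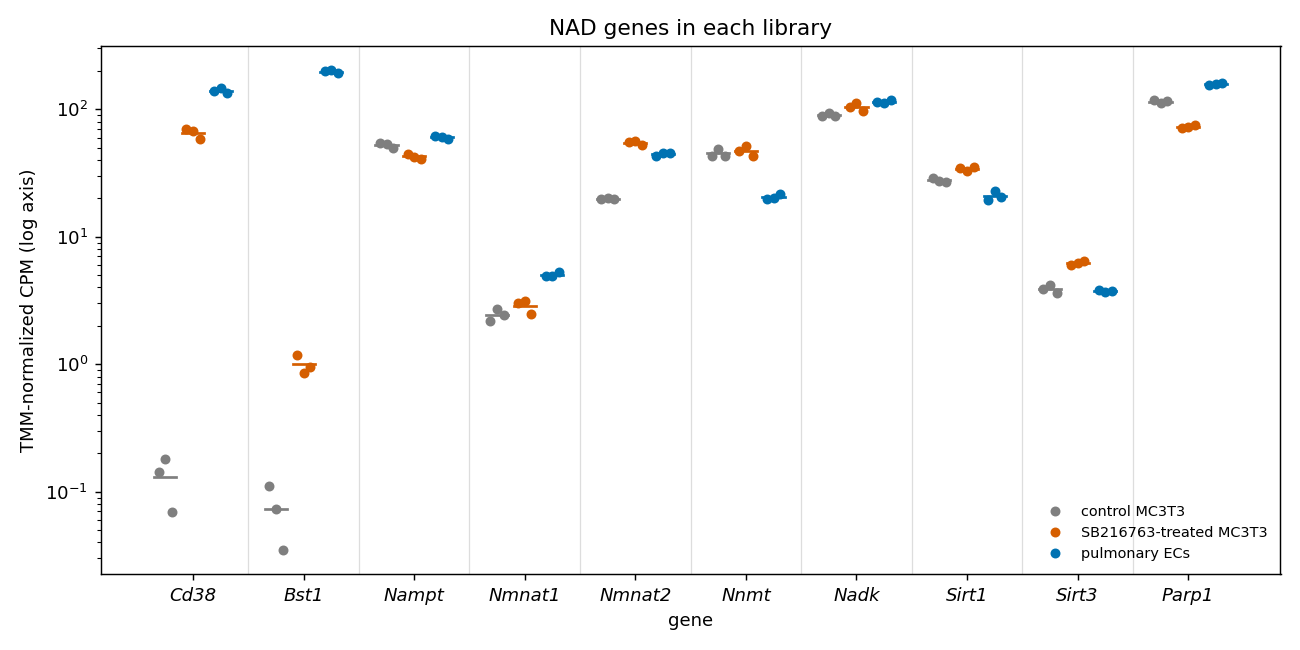
Level of each of the 10 NAD genes in each library, as TMM-normalized CPM on a log axis. Points are libraries and lines are group means. Cd38 and Bst1 span orders of magnitude, while the other 8 genes stay within a narrow range.

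In treated against control osteoblasts, 8 of the 10 genes had groups that did not overlap, 6 of them higher and 2 lower after treatment. Of all genes tested, 73.2% had groups that did not overlap, 37.3% higher and 35.9% lower. This contrast chose Cd38, so nothing is read from the count. The median absolute log2 fold change was 0.48 over the 10 genes and 0.554 over all genes. Changes as large as that of Nmnat2 were found in 17.3% of all genes, and changes as large as that of Parp1 in 44.0%.

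In ECs against controls, 6 of the 9 genes other than Cd38 were higher and 2 were lower at an adjusted p under 0.01 (edgeR). The 6 include Bst1, which the filter kept through the higher groups, so the count is a description. Over all genes these shares were 39.0% and 37.9%. Past the cutoffs of the study's methods, which also ask for a log2 fold change of at least 2, Bst1 was the only gene counted, as higher, where 13.5% of all genes were higher and 9.87% lower. In treated osteoblasts against ECs, 4 of the 9 genes were higher and 4 were lower (38.3% and 40.3% of all genes), and Bst1 alone was past the cutoffs, as lower (10.3% of all genes were higher and 15.0% lower). These comparisons share libraries with each other and with the contrast that chose Cd38.

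Levels of different genes were compared per kb of exon, with all exons of a gene joined. In the controls the order was Nnmt (28.6 CPM per kb), Nadk (24.1), Parp1 (21.7), Nampt (10.4), Sirt1 (5.22), Nmnat2 (3.44), Nmnat1 (0.803), Sirt3 (0.650), Cd38 (0.0337), and Bst1 (0.0219), and the ranges overlapped only between the last pair. After treatment only Nnmt (30.0 CPM per kb) and Nadk (27.8), whose ranges overlapped, stood above Cd38 (16.7), and Parp1 (13.8) stood next below it. Nmnat2 (9.47 CPM per kb) then stood above Nampt (8.43), the reverse of the controls, and the ranges of Sirt3 and Nmnat1 overlapped. In the ECs the order began with Bst1 (59.6 CPM per kb), Cd38 (36.0), Nadk (30.5), and Parp1 (29.9), with overlap between Nadk and Parp1. It went on with Nnmt (13.1 CPM per kb), Nampt (11.9), Nmnat2 (7.69), Sirt1 (3.93), Nmnat1 (1.66), and Sirt3 (0.627).

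The genes also differed in the windows of DNA around their RefSeq starts. RefSeq windows on GRCm38.p6, from 250 bases before to 50 bases after the start, were found for 8 of the 10 genes. The Cd38 window held 1 CpG, and 14.1% of the 32851 windows held as few. This window lies inside the first exon that GENCODE gives to Cd38, so it does not hold the DNA before the GENCODE start. Each of the other 7 genes had a window with between 17 and 47 CpGs, against a median of 7 over all windows, and Nadk had a second window with 4. The letters TCAAAG, the core that TCF/LEF factors bind with β-catenin, were found on neither strand in the windows of these 8 genes and in 16.0% of all windows. The absence says only that these letters are not in these windows.

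A further 60 genes of NAD metabolism were listed by role, and 43 of them passed the filter. These lists were also chosen with earlier results of these data known, so their counts and p-values are not an independent test. In treated against control osteoblasts, 24 of the 43, Enpp1 included, rose and 9 fell at an adjusted p under 0.01, where 32.9% and 32.0% of all genes did. With library size alone as the scaling, 30 rose and 6 fell. Past the study's cutoffs 3 rose and 1 fell with TMM, against 3.81% and 5.84% of all genes. The median log2 fold change was 0.23 over the 43 genes and 0.0142 over all genes. In ECs against controls, 17 were higher and 19 lower, against 39.0% and 37.9% of all genes, and 3 and 4 were past the cutoffs, against 13.5% and 9.87%. The number higher is near the background share. It includes Naprt, as do the 3 past the cutoffs. The filter kept Naprt through the other groups and not the controls. The number lower and the 4 lower past the cutoffs include Enpp3 and Sarm1, which it kept through the osteoblasts and not the ECs. These EC counts are therefore a description. Scaling by library size alone shifted the median of all genes by 0.204 on the log2 scale in treated against control osteoblasts, which is as large as several of the smaller changes described here.

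Of the 14 genes for other routes of synthesis, only 5 passed the filter. Most genes that make NAD from tryptophan, among them Kmo, Kynu, Haao, and Qprt (named after their values were seen), had group means of at most 0.156 CPM. Above this were Tdo2, with 0.218 CPM in the controls, and Ido2, with 0.252 CPM in the ECs. Afmid, which passed the filter, was at 1.58, 1.30, and 2.29 CPM in controls, treated cells, and ECs. Nmnat3, the mitochondrial NMNAT, was at 4.36 ± 0.503 CPM in the controls and rose to 8.05 ± 0.664 CPM (SD, n = 3) after treatment. The log2 fold change was 0.86 (SE 0.10, adjusted p = 1.69e-06, edgeR). Nmrk1, the nicotinamide riboside kinase, fell after treatment, from 25.7 ± 2.18 to 13.7 ± 0.764 CPM, and had an EC level of 4.45 ± 0.793 CPM. Its log2 fold change was -0.91 after treatment (SE 0.09, adjusted p = 1.14e-07, edgeR) and -2.53 in ECs against controls. Naprt, which starts synthesis from nicotinic acid and was named after its values were seen, was at 0.354 ± 0.116, 0.543 ± 0.102, and 5.42 ± 0.0406 CPM in controls, treated cells, and ECs. Its log2 fold change in ECs against controls was 4.03, given with no p because the controls alone would not have passed the filter.

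In the list of NADP formation, transport, repair, and clearance, 6 of 7 genes rose after treatment, against 32.9% of all genes, and the other, Nadk2 (named after its values were seen), did not pass the threshold. Aox1, the aldehyde oxidase that oxidizes methylated nicotinamide, was at 16.5, 14.0, and 15.3 CPM in the controls, 62.1, 58.5, and 74.8 CPM after treatment, and 42.9, 40.0, and 41.5 CPM in the ECs. Its log2 fold change after treatment was 2.09 (SE 0.08, adjusted p = 2.12e-12, edgeR), and it was 1.98 without SB216763 replicate 3, just under the cutoff. Nnmt, which makes its substrate, overlapped between these groups. Nudt12, which hydrolyzes NADH, rose from 0.388 ± 0.0286 to 1.17 ± 0.0286 CPM, with an EC level of 7.56 ± 0.477 CPM (log2 fold change 1.59 after treatment, adjusted p = 9.59e-07, edgeR).

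Of the 5 other sirtuins, 4 rose after treatment, where 32.9% of all genes did. Sirt7, a nucleolar sirtuin, went from 14.3, 14.8, and 12.8 CPM to 37.2, 38.3, and 42.4 CPM, a log2 fold change of 1.48 (SE 0.07, adjusted p = 2.49e-11, edgeR). Sirt2, mostly cytosolic, went from 57.7, 60.8, and 59.8 CPM to 119, 126, and 121 CPM, a log2 fold change of 1.04 (SE 0.04, adjusted p = 3.84e-12, edgeR). Both were above their EC levels of 27.8 ± 2.21 and 77.1 ± 1.48 CPM (SD, n = 3). Sirt5, named after its values were seen, did not pass the threshold (5.92 CPM in the controls and 5.53 CPM after treatment). Sirt1 and Sirt3 are not in this count.

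All 18 genes of ADP-ribosylation passed the filter, and 9 rose and 5 fell after treatment. Over all genes 32.9% rose and 32.0% fell, so the number that fell is near the background share. Parp14 and Parp10, which encode mono-ADP-ribosyltransferases known as interferon-inducible, rose most. Parp14 went from 6.11, 4.59, and 7.12 CPM to 20.9, 21.9, and 25.1 CPM (log2 fold change 1.96, SE 0.11, adjusted p = 1.85e-10, edgeR) and was at 30.9 ± 1.34 CPM in the ECs. Without control replicate 1, control replicate 3, or SB216763 replicate 1, its log2 fold change was 2.01, 2.06, and 2.01, past the cutoff. Parp10 went from 19.0 ± 0.724 to 56.1 ± 1.94 CPM, a log2 fold change of 1.56 (SE 0.05, adjusted p = 8.82e-14, edgeR), and its EC level was 27.6 ± 0.719 CPM. The smaller changes in this list depended on the scaling: with library size alone Parp3, Parp8, and Parg no longer fell, and Parp6, Parp12, Parp16, and Tnks rose (named after their values were seen). They also depended on single libraries. Parp11, Macrod1, and Oard1, likewise named afterwards, no longer rose without control replicate 1 (adjusted p = 0.0151, 0.0228, and 0.0198, edgeR). Nor did they without control replicate 3 (adjusted p = 0.0176, 0.0345, and 0.0126, edgeR). Macrod1 was also not called with DESeq2 (adjusted p = 0.0121).

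Macrod2, whose product removes ADP-ribose from proteins, fell most in this list. Its level was 32.1 ± 0.954 CPM in control osteoblasts, 7.09 ± 0.459 CPM in treated osteoblasts, and 3.06 ± 0.139 CPM in ECs (SD, n = 3), and its log2 fold change after treatment was -2.18 (SE 0.06, adjusted p = 4.33e-14, edgeR), or -1.97 with library size alone as the scaling. Parp2, which like Parp1 acts at DNA breaks, fell from 25.2 ± 0.547 to 16.3 ± 0.778 CPM, a log2 fold change of -0.63 (SE 0.05, adjusted p = 2.99e-08, edgeR), beside the lower Parp1 values above.

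Of the 8 genes for NAD breakdown outside the cell or in axons, 4 passed the filter and 3 of these rose, against 32.9% of all genes. The 3 include Enpp1, which passed only through the treated libraries, so the count is a description. Enpp1, an ectoenzyme that hydrolyzes nucleotides and forms pyrophosphate in bone, was at 0.138 ± 0.0538 CPM in the controls and at 7.88, 8.26, and 8.63 CPM after treatment, a log2 fold change of 5.83 (SE 0.22), given with no p for that reason. The ECs held 0.0718 ± 0.0783 CPM, which did not differ from the controls past the threshold unless EC replicate 3 was left out (log2 fold change -2.33, adjusted p = 0.00639, edgeR). The EC libraries left in that fit had 1 count of Enpp1 each, below the level of 3 counts, so its fold change is uncertain. Enpp3, a related ectoenzyme, rose from 0.868 ± 0.102 to 3.69 ± 0.241 CPM (log2 fold change 2.08, adjusted p = 9.52e-09, edgeR), and without control replicate 1 its log2 fold change was 1.99. It had 0, 0, and 1 counts in the EC libraries. Sarm1, a NAD hydrolase of axons named after its values were seen, was at 6.71 ± 0.718, 5.32 ± 0.530, and 0.212 ± 0.0631 CPM in controls, treated cells, and ECs.

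CD38 makes cyclic ADP-ribose and NAADP, which release calcium from internal stores. Of 8 genes that respond to them, the ryanodine receptor genes Ryr1, Ryr2, and Ryr3 and the channel gene Trpm2 (all named after their values were seen) did not pass the filter, with means of at most 0.217 CPM in any group. The other 4 belong to the NAADP branch, and 1 of them rose and 3 fell, against 32.9% and 32.0% of all genes. Tpcn1, an endolysosomal channel gene, rose from 90.8 ± 3.42 to 114 ± 4.03 CPM (log2 fold change 0.32, adjusted p = 1.31e-05, edgeR). Jpt2, which encodes an NAADP-binding protein, fell from 198, 204, and 190 CPM to 54.5, 56.5, and 52.9 CPM, a log2 fold change of -1.85 (SE 0.05, adjusted p = 5.06e-15, edgeR). Lsm12, which encodes another NAADP-binding protein, fell from 112 ± 4.43 to 73.9 ± 5.36 CPM (log2 fold change -0.60, adjusted p = 6.00e-08, edgeR).

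**Figure D3:**
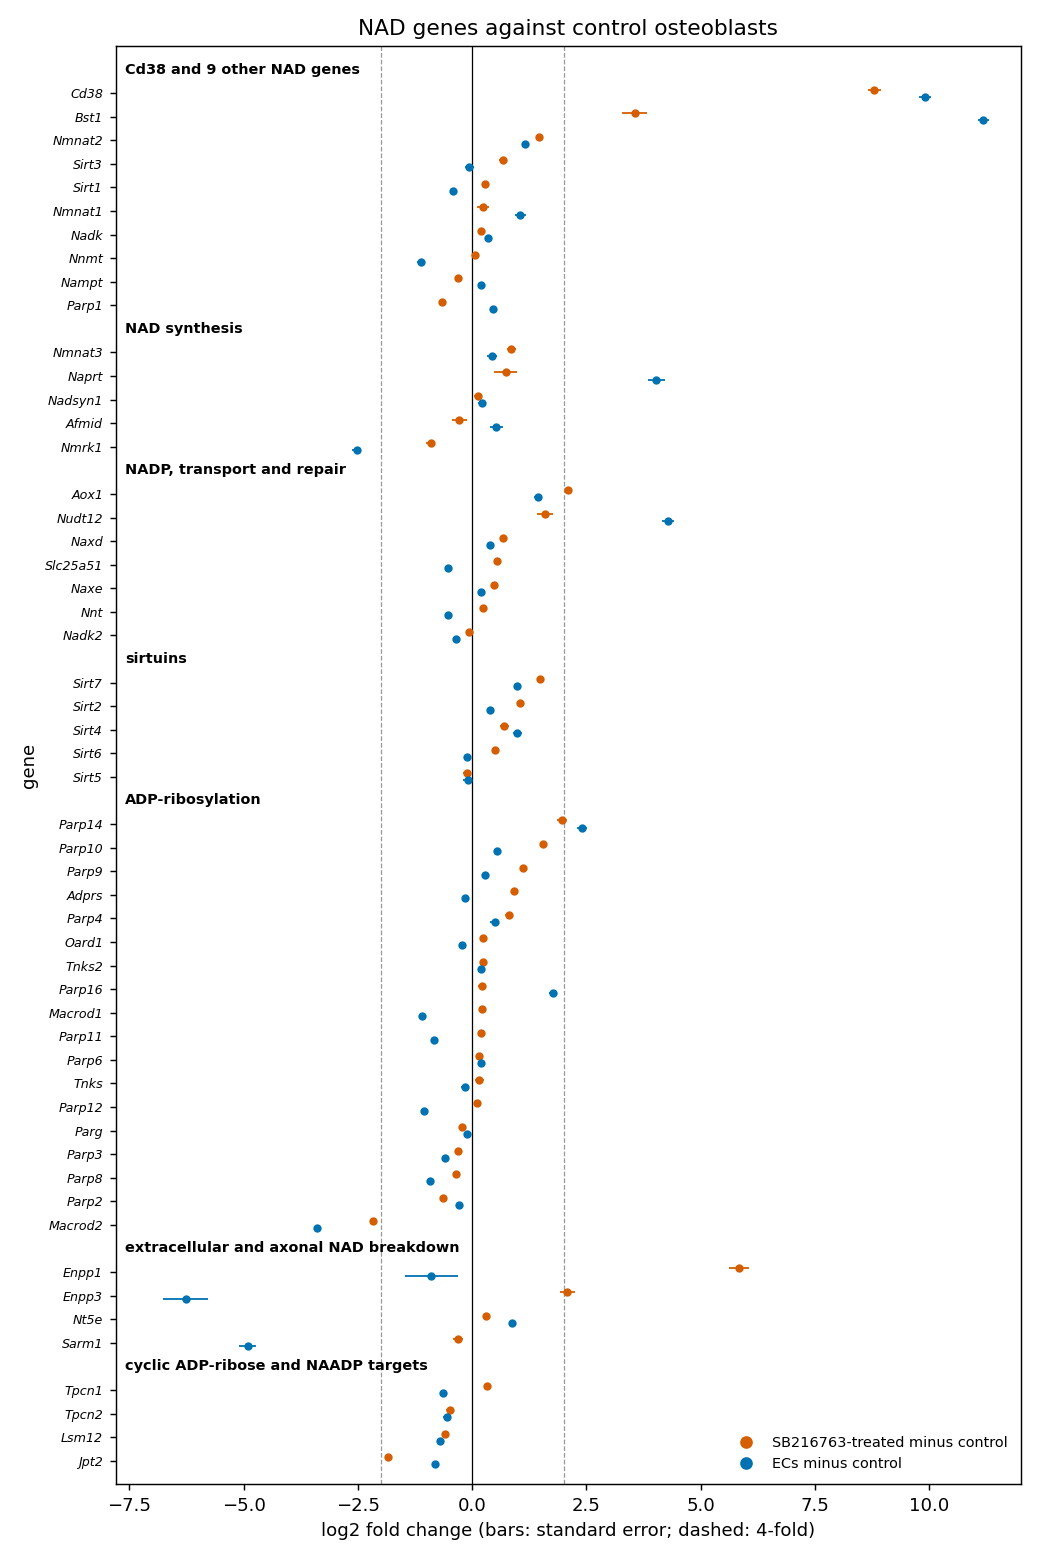
Log2 fold change of each NAD gene that passed the filter, in treated osteoblasts (orange) and ECs (blue) against the same control libraries, with standard errors as bars and the 4-fold cutoff as dashed lines. Cd38 and Bst1 lie far to the right in ECs and also to the right after treatment, at 8.80 and 3.56. Enpp1 and Enpp3 lie to the right after treatment only. The EC point of Enpp3 rests on 1 count in all and depends on the prior count.

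The pattern of Cd38 over the 9 libraries was compared with that of 10259 genes that reached a mean of 10 CPM in a group. The measure was the root mean square difference of log2 CPM, with each gene centered on its own mean, and the median gene was at 4.36. Nearest were Cd200, a surface glycoprotein gene (0.643), Pf4, which encodes a platelet chemokine (0.977), Mgst1, a microsomal glutathione transferase gene (1.02), Csgalnact1, a gene of chondroitin sulfate synthesis (1.07), and Gbp9, a guanylate-binding protein gene (1.12). Their Pearson correlations with Cd38 over the 9 libraries were between 0.969 and 0.996, and since the libraries fall into 3 groups, these values describe the group levels. In the controls Pf4 had a mean of 0.0226 CPM and the others had means between 0.120 and 0.146 CPM, near the level of 3 counts. The distances thus rest in part on these low values and on the prior count of 2 used for log2 CPM. Cd200 was at 0.146 ± 0.0943 CPM in control osteoblasts, 46.9 ± 2.81 CPM in treated osteoblasts, and 154 ± 5.65 CPM in ECs (SD, n = 3). Gbp9 was further from the ECs after treatment, at 12.4 ± 0.675 CPM against 114 ± 2.25 CPM.

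**Figure D4:**
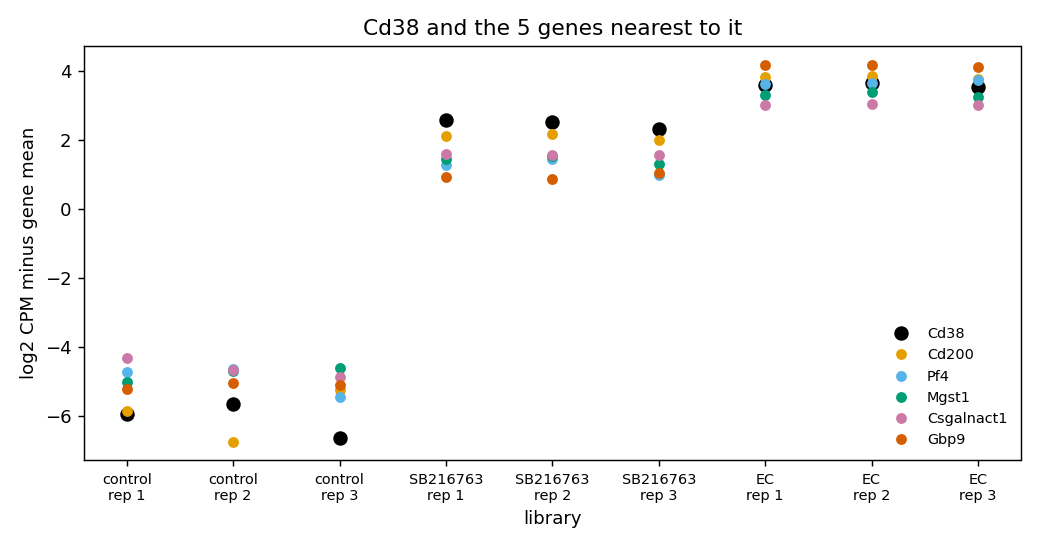
Log2 CPM of Cd38 and the 5 genes nearest to it, each minus its mean over the 9 libraries, by library. For each gene the controls are lowest, the ECs highest, and the treated libraries between them, with Cd38 nearest to its EC level.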

How the data were processed

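RNA-Seq was analyzed for 9 libraries, 3 each of control MC3T3-E1 osteoblasts, SB216763-treated MC3T3-E1 osteoblasts, and mouse pulmonary ECs. The authors aligned the reads and made the deposited counts, whole numbers per gene without normalization, with STAR, which the submitters' processing notes give as version 2.5.3a on GRCm38. The annotation and strand setting are not given in the sources used here. Groups came from the sample titles, and every count column matched a sample. Symbols were found for 50376 of 50686 identifiers. Positions and exon lengths are from GENCODE M21 on GRCm38, and promoter windows from RefSeq.

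Counts were tested in R 4.3.3 with edgeR 4.0.16: filterByExpr, TMM, and quasi-likelihood tests in 1 fit of all libraries, with Benjamini-Hochberg adjustment over the 15531 genes tested. A gene rose or fell at an adjusted p under 0.01, and the study's cutoffs also ask for a log2 change of 2 or more in size. Standard errors were derived from the fold change and its F statistic. The genes and lists were chosen with earlier results of these data known. Of the other NAD genes, those past the cutoffs after treatment were named, with the 2 largest changes per list and direction. Alternatives were DESeq2 1.42.0, limma-voom (limma 3.58.1), other scalings, filters, thresholds, and prior counts, fits of only the groups compared, a replicate block, and each library left out. The tests were tried on simulated counts first. Replicates of a group differed by more than sampling noise.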

Additional observations from a re-analysis of the deposited data

How the results depend on the processing

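The log2 fold change of Cd38 in treated against control osteoblasts stayed between 8.42 and 9.0 under the alternative tools, scalings, filters, and prior count, and between 8.63 and 9.05 with each library left out. None of the other 9 log2 fold changes of the chosen NAD genes in that contrast took the opposite sign under these alternatives, at 2 decimals, and Nnmt reached 0.00 with a library left out. Bst1 was at 3.01 with a prior count of 2. Scaling by library size alone gave -0.10 for Nampt, 0.27 for Nnmt, 0.41 for Nadk, and 0.49 for Sirt1. With that scaling 0 of the other NAD genes, in place of 1, fell past the study's cutoffs after treatment, since Macrod2 was at -1.97. Without a filter, 10 of the other NAD genes were higher in ECs than in controls past the cutoffs, in place of 3, because more genes were tested, and the call of Nampt in ECs against controls was lost (adjusted p = 0.0123, edgeR). The other counts stayed within 1.5 times under every alternative run. With each library left out, 21 to 24 of the other NAD genes rose after treatment, and 2 to 4 past the cutoffs.

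The replicate numbers are shared by the groups, but the labels do not tie them to a batch. Across genes, deviations from the group mean correlated between libraries of the same number by 0.0689 for treated and control, -1.76e-04 for EC and control, and -0.0173 for treated and EC libraries. With the number as a block, 24 of the other NAD genes rose and 10 fell after treatment, Cd38 had a log2 fold change of 8.82, and 6 of 9 genes were higher in ECs than in controls.
Depth limits what can be said of Cd38 and Bst1 in the controls, where they had at most 10 counts per library.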
